A study of Mus musculus with 8 samples.

Results

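The naive pluripotency transcription factors described here are 10 genes: Tfcp2l1, Klf2, Klf4, Klf5, Esrrb, Nanog, Nr5a2, Nr0b1, Tbx3 and Zfp42. They were taken by symbol from the deposited gene table. The members and the other gene lists below were chosen with earlier results of these data known. All 10 were found among the 17488 genes with values and passed the filter on low values that left 13959 genes for testing. RNA was sequenced from mouse embryonic stem (ES) cells of the E14 line, strain 129/Ola, in 8 libraries, 2 in each of 4 groups. The GSK3β line lacks endogenous Gsk3β and carries a GSK3β-L132G transgene, and it was sampled with 5 µM 3MB-PP1 for 2 h and untreated. The GSK3α line lacks endogenous Gsk3α and carries a GSK3α-L195G transgene, and it was likewise sampled with 3MB-PP1 and untreated. All 4 groups were first kept without serum in N2B27 medium for 6 h. 3MB-PP1 is a bulky kinase inhibitor, and the leucine-to-glycine change makes a kinase sensitive to it, so the comparison within each line asks how the cells respond when 1 GSK3 paralog is inhibited while the other stays active. The labels name no vehicle and include no cells without a mutant kinase, there is 1 line for each paralog, and whether replicates were separate cultures is not said. The p-values therefore measure only the spread between these libraries, which may be technical.

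As background, ES cells in the naive state hold a network of transcription factors that keep one another expressed and keep the cells able to self-renew. LIF signalling acts through STAT3 on Klf4 and Tfcp2l1, among others. GSK3 marks β-catenin for destruction, and when GSK3 is inhibited β-catenin accumulates and relieves repression by TCF7L1, the TCF factor that holds down Esrrb, Tfcp2l1, Klf2 and Nanog in these cells.

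The promoters of the 3 factors that changed most with 3MB-PP1 in the GSK3β line, and of Zfp42, which did not pass the test there, are printed to show what their start sites carry. Each is the 250 bases before the start in RefSeq (GRCm38.p6), 5′ to 3′ along the gene, with matches to the searched motifs in capitals.
Tfcp2l1: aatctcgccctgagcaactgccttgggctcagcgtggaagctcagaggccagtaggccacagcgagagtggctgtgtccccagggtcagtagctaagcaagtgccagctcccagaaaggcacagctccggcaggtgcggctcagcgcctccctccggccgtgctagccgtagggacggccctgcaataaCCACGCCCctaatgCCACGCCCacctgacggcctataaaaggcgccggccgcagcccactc
Klf4: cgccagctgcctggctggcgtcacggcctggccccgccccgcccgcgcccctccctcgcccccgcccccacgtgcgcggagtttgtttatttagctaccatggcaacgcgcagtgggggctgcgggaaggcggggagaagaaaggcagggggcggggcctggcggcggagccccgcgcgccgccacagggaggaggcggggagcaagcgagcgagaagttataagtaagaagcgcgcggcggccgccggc
Klf2: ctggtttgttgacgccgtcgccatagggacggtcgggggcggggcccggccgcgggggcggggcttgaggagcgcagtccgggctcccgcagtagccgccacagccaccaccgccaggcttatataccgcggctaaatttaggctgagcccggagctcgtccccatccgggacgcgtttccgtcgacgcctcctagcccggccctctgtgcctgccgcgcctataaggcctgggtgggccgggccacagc
Zfp42: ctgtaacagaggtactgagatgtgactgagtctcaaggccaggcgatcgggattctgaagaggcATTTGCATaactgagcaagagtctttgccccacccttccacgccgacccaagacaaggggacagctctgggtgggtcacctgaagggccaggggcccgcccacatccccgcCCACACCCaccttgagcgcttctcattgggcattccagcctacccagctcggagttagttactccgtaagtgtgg
They lie at chr1:118627695-118627944 on the plus strand for Tfcp2l1, chr4:55532476-55532725 on the minus strand for Klf4, chr8:72318812-72319061 on the plus strand for Klf2 and chr8:43307010-43307259 on the minus strand for Zfp42. The motifs, searched on both strands, were TCF/LEF (CTTTGAT), STAT (TTCNNNGAA), the ESRRB and NR5A2 half-site (AAGGTCA), KLF (GGGNGTGG) and the octamer (ATTTGCAT), and no 2 matches overlapped. The Tfcp2l1 promoter held 2 KLF matches, and the Zfp42 promoter held 1 KLF match and 1 octamer match. The Klf4 and Klf2 promoters held none of the 5 motifs, and their GC content was 74.0% and 71.2%, against a median of 52.4% over all promoters.

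RefSeq promoters were found for 8 of the 10 factors, 11 in all, since some genes have more than 1 start, and Klf5 and Tbx3 had no entry. The KLF motif was found in 5 of these 11 promoters, belonging to Nanog, Nr5a2, Tfcp2l1 and Zfp42, while 15.9% of all 32851 promoters of this length hold it. The 2 Nanog promoters overlap by 174 bases and share 1 KLF match, so they are not separate cases. The STAT motif was in 1 Esrrb promoter (7.02% of all promoters) and the octamer in that of Zfp42 (1.6%). The TCF/LEF motif (3.21%) and the half-site (4.08%) were in 0 of the 11. These matches describe letters in short windows and are not binding sites.

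The deposited values are estimated gene counts scaled by the authors so that the third quartile was equal, and the libraries held an estimated 21.5 to 32.4 M reads, most in the GSK3β libraries with 3MB-PP1 (31.2 and 32.4 M). Gsk3b had values of 258 and 249 in GSK3β 3MB-PP1 cells, 235 and 256 in GSK3β untreated cells, 52.7 and 55.3 in GSK3α 3MB-PP1 cells, and 58.2 and 54.7 in GSK3α untreated cells. Gsk3a had 77.6 and 79.9 in GSK3β 3MB-PP1 cells, 77.9 and 76.2 in GSK3β untreated cells, 141 and 142 in GSK3α 3MB-PP1 cells, and 155 and 160.0 in GSK3α untreated cells, so each line was higher for the paralog it carries as a transgene. All 8 ES cell markers had values, with a sum of 4706 to 4796 in GSK3β 3MB-PP1 cells, 4877 to 5000 in GSK3β untreated cells, 4768 to 4901 in GSK3α 3MB-PP1 cells and 4790 to 4955 in GSK3α untreated cells. Of these, Fbxo15 was higher and Tdgf1 and Utf1 lower with 3MB-PP1 in the GSK3β line.

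Marker sums of other cell types were small beside those of ES cells, and several moved with the groups. The 6 neural markers with values (of 8) summed to 219 to 228 in GSK3β 3MB-PP1 cells, 155 to 167 in GSK3β untreated cells, 161 to 162 in GSK3α 3MB-PP1 cells and 145 to 152 in GSK3α untreated cells, with Nes and Tubb3 higher with 3MB-PP1 in the GSK3β line. The 7 primitive endoderm markers (of 8; Foxa2 had none) summed to 36.8 to 40.4 in GSK3β 3MB-PP1 cells, 28.5 to 29.6 in GSK3β untreated cells, 42.5 to 42.7 in GSK3α 3MB-PP1 cells and 40.2 to 41.1 in GSK3α untreated cells, with Lama1 higher with 3MB-PP1 in the GSK3β line. The 5 mesendoderm markers (of 8; Mesp1, Foxa2 and Lhx1 had none) summed to 17.6 to 18.4 in GSK3β 3MB-PP1 cells, 14.03 to 15.1 in GSK3β untreated cells, 16.1 to 17.7 in GSK3α 3MB-PP1 cells and 18.4 to 18.9 in GSK3α untreated cells. Of these, Gsc and Evx1 were higher with 3MB-PP1 in the GSK3β line. The call of Gsc was lost without either GSK3β 3MB-PP1 library or GSK3β untreated replicate 1 (adjusted p up to 0.153), and that of Evx1 without either GSK3β untreated library (up to 0.104). Evx1 lay near the filter on low values and could be fitted in 14 of the 18 alternatives, of which 12 passed. Of the 8 fits without a single library it was tested in 5 and passed in 3. The 7 trophoblast markers (of 8; Elf5 had none) summed to 26.4 to 29.0 in GSK3β 3MB-PP1 cells, 22.6 to 23.3 in GSK3β untreated cells, 20.6 to 23.0 in GSK3α 3MB-PP1 cells and 22.0 to 22.4 in GSK3α untreated cells. The 4 fibroblast markers (of 8; Col3a1, Postn, Dcn and Lum had none) summed to between 11.3 and 16.1 in the 8 libraries. The 6 genes of the 2-cell-like state summed to 98.0 to 104 in GSK3β 3MB-PP1 cells, 116 to 124 in GSK3β untreated cells, 97.6 to 99.8 in GSK3α 3MB-PP1 cells and 101 to 106 in GSK3α untreated cells, with Zscan4c, Zscan4d and Zscan4f lower with 3MB-PP1 in the GSK3β line. The Zscan4 genes are near-identical copies, so how reads were split between them is uncertain, and the calls of Zscan4c and Zscan4d were lost without GSK3β 3MB-PP1 replicate 1 or GSK3β untreated replicate 1 (up to 0.390 and 0.289). In the GSK3α line 0 members of these lists, ES cell markers included, passed with limma-trend or with limma-voom. At an unadjusted p under 0.05, 2 were higher and 5 lower there. Over all tested genes 14.9% passed with limma-trend in the GSK3β line and 0.881% in the GSK3α line, so 0 calls in the latter is near that share. The part of these marker shifts in the results below was not tested.

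With 3MB-PP1 in the GSK3β line, 8 of the 10 naive factors rose, Nr0b1 fell and Zfp42 did not pass the test. Over all tested genes 14.9% passed, 7.49% higher and 7.44% lower. The median log2 change of the 10 factors was 0.33, against -0.01 over all tested genes. The factors were chosen with earlier results of these data known, so these comparisons with all tested genes are no independent test. The size ran from 1.64-fold for Tfcp2l1 to 1.10-fold for Nanog, in the order Tfcp2l1, Klf4, Klf2, Nr5a2, Klf5, Tbx3, Esrrb and Nanog. For 8 factors both libraries with 3MB-PP1 lay above both untreated ones, which 27.3% of all tested genes did, and for Nr0b1 both lay below, as for 30.0%. RNA was taken from whole cultures, so a change in the share of cells expressing a factor and a change in its RNA per cell cannot be told apart.

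Tfcp2l1, a relative of the grainyhead factors that acts downstream of both LIF and Wnt signalling in ES cells, had values of 366 and 334 in GSK3β 3MB-PP1 cells, 203 and 223 in GSK3β untreated cells, 238 and 248 in GSK3α 3MB-PP1 cells, and 246 and 238 in GSK3α untreated cells. Both GSK3β 3MB-PP1 libraries stood above the other 6, and the GSK3β untreated libraries were the lowest. The log2 change in the GSK3β line was 0.72 (SE 0.04, 95% interval 0.62 to 0.81, adjusted p = 1.78e-09, limma-trend), rank 34 from the highest of 13959 genes. Tfcp2l1 lies at chr1:118627945-118685168 on the plus strand (GRCm38), and 5183 to 12195 estimated reads stood behind each value.

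**Figure D1:**
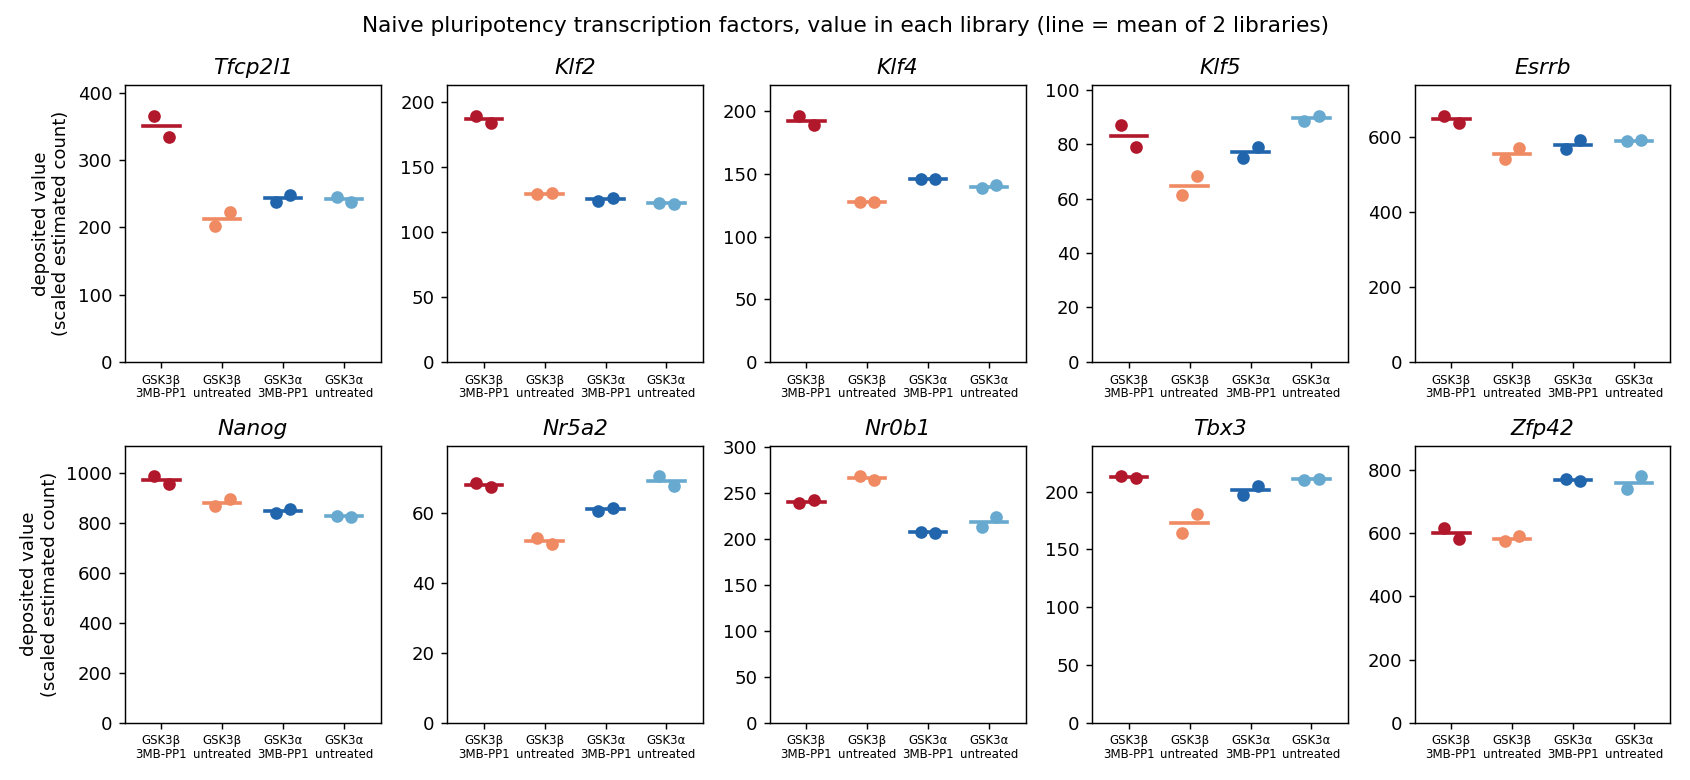
Deposited value (scaled estimated count, linear axis from 0) of each naive factor in each library, with points for the 2 libraries of a group and a line for their mean. Tfcp2l1, Klf2, Klf4, Esrrb, Nanog and, by a narrow margin, Tbx3 were highest in both GSK3β 3MB-PP1 libraries, and Zfp42 was lower in the 4 GSK3β libraries than in the 4 GSK3α libraries.

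Klf2, Klf4 and Klf5 are zinc finger factors of the KLF family that bind GC-rich promoters and enhancers and can partly stand in for each other in ES cells. Klf4 (chr4:55527143-55532466, minus strand) had values of 197 and 189 in GSK3β 3MB-PP1 cells, 128 and 128 in GSK3β untreated cells, 146 and 146 in GSK3α 3MB-PP1 cells, and 139 and 141 in GSK3α untreated cells. No 2 groups overlapped, with GSK3β 3MB-PP1 cells the highest and GSK3β untreated cells the lowest. The rise in the GSK3β line was 1.50-fold (log2 0.59, SE 0.03, adjusted p = 5.04e-10).

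Klf2 (chr8:72319033-72321656, plus strand) had 189.8 and 184 in GSK3β 3MB-PP1 cells, 129 and 129.8 in GSK3β untreated cells, 124 and 126 in GSK3α 3MB-PP1 cells, and 123 and 122 in GSK3α untreated cells. Only the GSK3β 3MB-PP1 libraries stood far from the rest, and the other 3 groups spanned 122 to 129.8 over 6 libraries. Klf2 rose 1.44-fold in the GSK3β line (log2 0.53, SE 0.03, adjusted p = 1.66e-09).

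Klf5 (chr14:99298691-99315036, plus strand) had 86.9 and 79.1 in GSK3β 3MB-PP1 cells, 61.3 and 68.2 in GSK3β untreated cells, 75.1 and 79.1 in GSK3α 3MB-PP1 cells, and 88.5 and 90.5 in GSK3α untreated cells. Here the GSK3β 3MB-PP1 libraries overlapped those of GSK3α 3MB-PP1 cells and lay below GSK3α untreated cells, while GSK3β untreated cells were the lowest. Klf5 rose 1.28-fold in the GSK3β line (log2 0.35, SE 0.05, adjusted p = 6.79e-05), so its level with 3MB-PP1 was no higher than that of the untreated GSK3α line.

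Esrrb, Nr5a2 and Nr0b1 are orphan nuclear receptors. ESRRB and NR5A2 bind related sequences and activate naive genes, and NR0B1 (DAX1) has no usual DNA-binding domain and represses other nuclear receptors. Esrrb (chr12:86361117-86521628, plus strand) had values of 658 and 638 in GSK3β 3MB-PP1 cells, 541 and 573 in GSK3β untreated cells, 568 and 592 in GSK3α 3MB-PP1 cells, and 589.5 and 593 in GSK3α untreated cells. The GSK3β 3MB-PP1 libraries were the highest, and the other 3 groups overlapped their neighbours in level. Esrrb rose 1.16-fold in the GSK3β line (log2 0.22, SE 0.03, adjusted p = 0.000107).

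Nr5a2 (chr1:136842571-136960448, minus strand) had 68.4 and 67.5 in GSK3β 3MB-PP1 cells, 52.8 and 51.2 in GSK3β untreated cells, 60.5 and 61.4 in GSK3α 3MB-PP1 cells, and 70.4 and 67.8 in GSK3α untreated cells. GSK3β untreated cells were the lowest, and GSK3β 3MB-PP1 cells overlapped GSK3α untreated cells. Nr5a2 rose 1.30-fold in the GSK3β line (log2 0.38, SE 0.04, adjusted p = 1.70e-06).

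Nr0b1 (chrX:86191764-86195947, plus strand) had 239 and 242 in GSK3β 3MB-PP1 cells, 268 and 264 in GSK3β untreated cells, 208 and 207 in GSK3α 3MB-PP1 cells, and 213 and 223 in GSK3α untreated cells. It was the only factor of the 10 that fell in the GSK3β line, with a fold change of 0.905 (log2 -0.14, SE 0.03, adjusted p = 0.00340). No 2 groups overlapped, and both GSK3β groups lay above both GSK3α groups. Without GSK3β 3MB-PP1 replicate 1 the fall missed the threshold (log2 -0.13, adjusted p = 0.0607, the highest of 18 alternatives).

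Nanog, a homeodomain factor that lets ES cells self-renew without LIF when its level is raised (chr6:122707489-122714633, plus strand), had values of 987 and 955 in GSK3β 3MB-PP1 cells, 868 and 897 in GSK3β untreated cells, 841 and 855 in GSK3α 3MB-PP1 cells, and 829.7 and 826 in GSK3α untreated cells. The 4 groups followed that order without overlap. Its rise in the GSK3β line was the smallest that passed (log2 0.14, SE 0.03, adjusted p = 0.00287), and it missed the threshold without GSK3β 3MB-PP1 replicate 1 (log2 0.11, adjusted p = 0.0908, the highest of 18 alternatives).

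Tbx3, a T-box factor that maintains naive cells and also acts in early endoderm (chr5:119670669-119684724, plus strand), had 213 and 212 in GSK3β 3MB-PP1 cells, 164 and 181 in GSK3β untreated cells, 198 and 205 in GSK3α 3MB-PP1 cells, and 210.2 and 211 in GSK3α untreated cells. GSK3β untreated cells were the lowest, and the other 3 groups lay between 198 and 213. Tbx3 rose 1.23-fold in the GSK3β line (log2 0.30, SE 0.04, adjusted p = 1.75e-05). The antisense gene Tbx3os1 overlaps it, the authors' strand setting is not given in the sources used here, and the values of Tbx3os1 were 0.847 to 1.50.

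Zfp42 (REX1), a zinc finger factor related to YY1 and a classical marker of undifferentiated cells (chr8:43295063-43306980, minus strand), had 616 and 583 in GSK3β 3MB-PP1 cells, 575 and 591 in GSK3β untreated cells, 771 and 766 in GSK3α 3MB-PP1 cells, and 739 and 780.2 in GSK3α untreated cells. The treated and untreated libraries overlapped within each line, while both GSK3β groups lay below both GSK3α groups. The change in the GSK3β line was log2 0.04 (95% interval -0.03 to 0.11, adjusted p = 0.470). The annotation holds processed pseudogene copies of Zfp42 (Zfp42-ps1) and of Nanog (Nanog-ps1 and Nanog-ps2) without values in the table, so reads shared with them make the levels of these 2 genes uncertain.

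With 3MB-PP1 in the GSK3α line, 1 of the 10 factors passed the test: Nr5a2 fell to 60.5 and 61.4, against 70.4 and 67.8 in untreated cells (log2 -0.18, SE 0.04, 95% interval -0.26 to -0.10, adjusted p = 0.0365). Over all tested genes 0.881% passed, 0.265% higher and 0.616% lower. This call was not stable: it was lost when any 1 of the 4 GSK3α libraries or either GSK3β 3MB-PP1 library was left out (adjusted p 0.0635 to 0.373, log2 -0.20 to -0.15), and with limma-voom (adjusted p = 0.0546). Klf5 had the largest fitted decrease of the 10 (log2 -0.21, SE 0.05, 95% interval -0.32 to -0.11) and missed the threshold (adjusted p = 0.0518), though it passed in 9 of the 18 alternatives tried (adjusted p 0.00566 to 0.522). The median log2 change of the factors was -0.01, against 0.01 over all tested genes.

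The factors that rose most in the GSK3β line had small fitted changes in the GSK3α line. That of Tfcp2l1 was log2 0.01 (95% interval -0.09 to 0.10, adjusted p = 0.971), that of Klf2 was 0.03 (adjusted p = 0.751) and that of Klf4 was 0.06 (adjusted p = 0.476). Esrrb, Nanog, Tbx3, Nr0b1 and Zfp42 had log2 changes between -0.07 and 0.03. Both treated libraries lay above both untreated ones for Klf2, Klf4 and Nanog and below for Klf5, Nr5a2, Tbx3 and Nr0b1, while 23.0% of all tested genes lay wholly above and 19.0% wholly below. At an unadjusted p under 0.05, 0 factors were higher and 3 lower in the GSK3α line, and with limma-voom 0 passed in either direction.

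**Figure D2:**
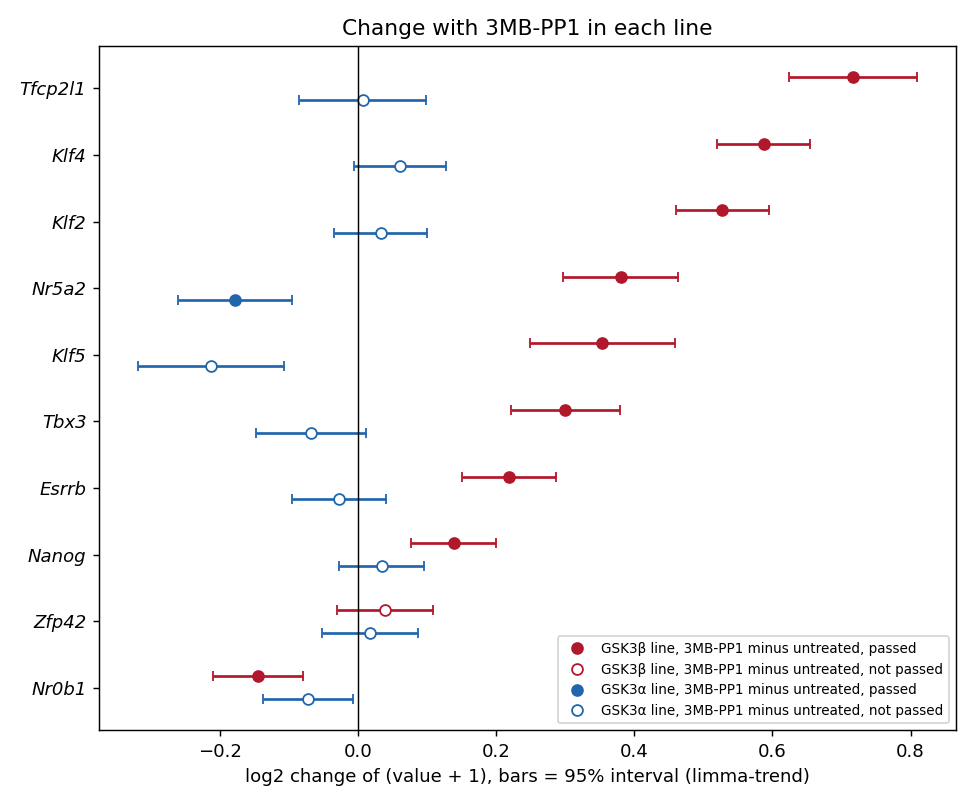
Log2 change with 3MB-PP1 in the GSK3β line (red, upper of each pair) and the GSK3α line (blue, lower), with 95% intervals from limma-trend and filled points for adjusted p under 0.05. In the GSK3β line 8 factors lie to the right of 0 with filled points, and in the GSK3α line Nr5a2 alone is filled, at -0.18.

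The difference of the 2 changes, GSK3β minus GSK3α, was tested as an interaction in the same fit. It passed for 7 of the 10 factors, all with the higher change in the GSK3β line, where each of them rose. Over all tested genes 6.53% passed, 3.62% in that direction and 2.90% in the other. The differences were log2 0.71 for Tfcp2l1 (adjusted p = 7.03e-07), 0.57 for Klf5 (adjusted p = 4.96e-05), 0.56 for Nr5a2 (adjusted p = 3.48e-06), 0.53 for Klf4 (adjusted p = 6.16e-07), 0.50 for Klf2 (adjusted p = 1.10e-06), 0.37 for Tbx3 (adjusted p = 0.000247) and 0.25 for Esrrb (adjusted p = 0.00258). For Nanog the difference was 0.10 (95% interval 0.02 to 0.19, adjusted p = 0.148), so the rise that passed in the GSK3β line was not shown to differ from the change in the GSK3α line. The differences of Nr0b1 (-0.07, adjusted p = 0.376) and Zfp42 (0.02, adjusted p = 0.852) did not pass. In Klf5, Nr5a2, Tbx3 and Esrrb the fitted changes had opposite signs in the 2 lines. In the GSK3α line they were log2 -0.21, -0.18, -0.07 and -0.03, and Nr5a2 alone passed there.

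**Figure D3:**
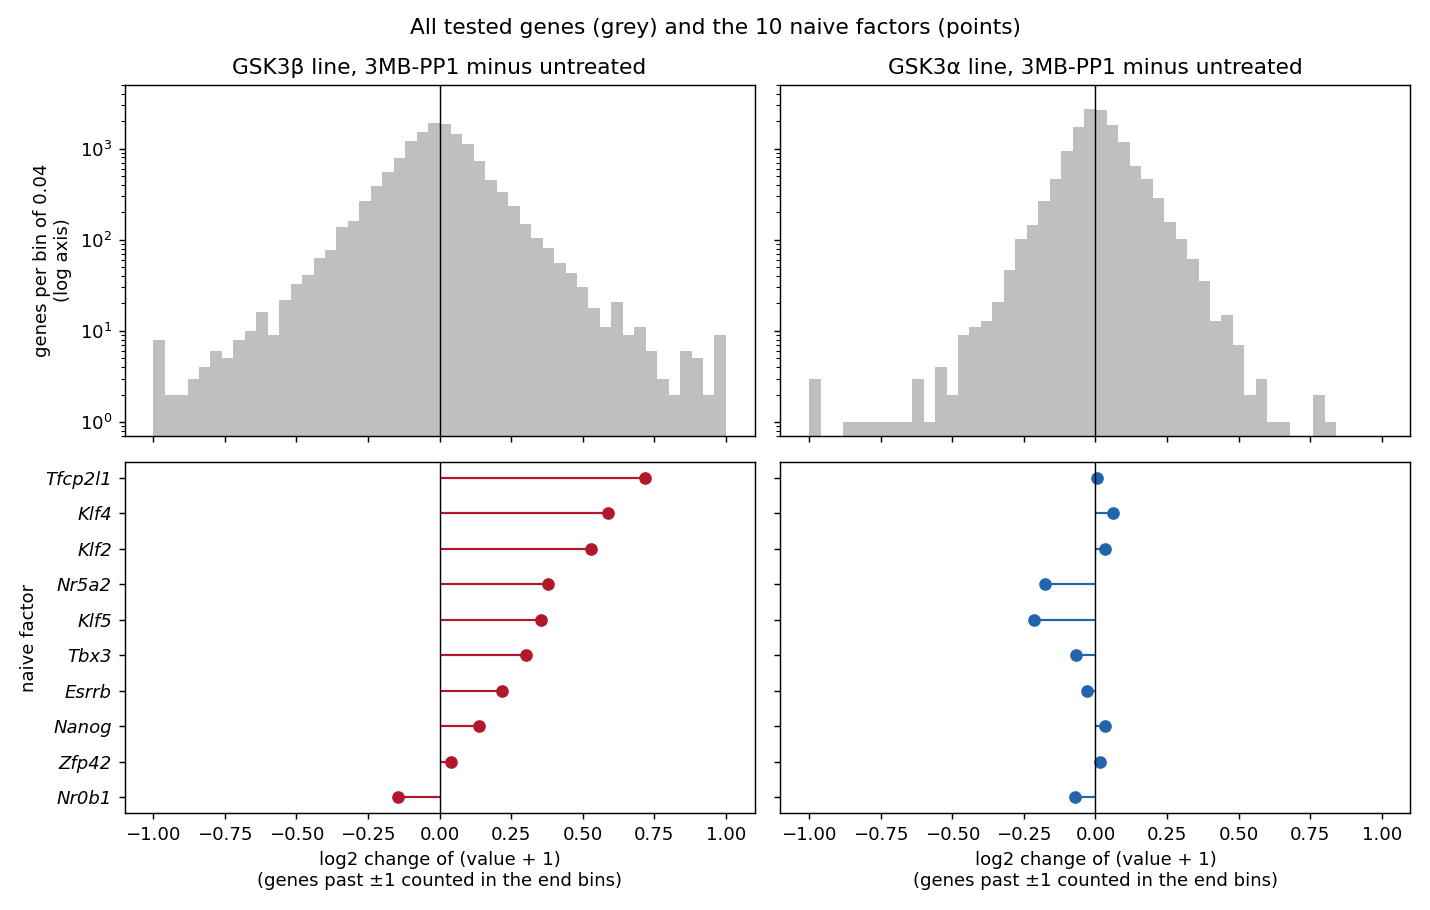
Upper panels: number of tested genes (log axis) by log2 change with 3MB-PP1 in the GSK3β line (left) and the GSK3α line (right), 13959 genes each. Lower panels: the 10 naive factors on the same axis. Tfcp2l1 at 0.72 ranked 34 from the highest in the GSK3β line, with Klf4 at 78 and Klf2 at 98.

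The untreated lines differed in all 10 factors before any inhibitor: 7 were lower and 3 higher in the GSK3β line than in the GSK3α line. Such differences were common, since 48.2% of all tested genes passed, 22.3% higher and 25.9% lower, and the share of higher calls among those that passed was 46.3% as deposited and 58.9% after rescaling to equal totals. Klf5 (log2 -0.46, adjusted p = 4.49e-07), Nr5a2 (-0.40, adjusted p = 1.16e-07), Zfp42 (-0.38, adjusted p = 2.42e-08), Tbx3 (-0.29, adjusted p = 4.58e-06), Tfcp2l1 (-0.19, adjusted p = 0.00188), Klf4 (-0.13, adjusted p = 0.00272) and Esrrb (-0.09, adjusted p = 0.0323) were lower in untreated GSK3β cells. Nr0b1 (0.29, adjusted p = 4.61e-07), Nanog (0.09, adjusted p = 0.0146) and Klf2 (0.08, adjusted p = 0.0439) were higher. The libraries of the lines did not overlap for any of the 10, 3 above and 7 below, against 33.5% above and 38.7% below over all tested genes. The smallest of these calls depended on single libraries: that of Klf2 was lost without any 1 of the 8 libraries (adjusted p 0.0540 to 0.136), that of Esrrb without GSK3β untreated replicate 1 or either GSK3α untreated library (up to 0.298), and that of Nanog without GSK3β untreated replicate 2 or GSK3α untreated replicate 2 (0.103 and 0.0576). With limma-voom the call of Klf4 was lost as well (adjusted p = 0.0542, the highest of 18 alternatives). With equal totals the log2 differences were 0.14 for Nanog, 0.13 for Klf2 and -0.08 for Klf4.

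The change with 3MB-PP1 in the GSK3β line and the difference between the untreated lines use the same GSK3β untreated libraries, so a low or high value there moves both. Set side by side, the group means of Nr5a2 were 67.9 ± 0.631 in GSK3β 3MB-PP1 cells, 52.0 ± 1.12 in GSK3β untreated cells, 60.9 ± 0.668 in GSK3α 3MB-PP1 cells and 69.1 ± 1.85 in GSK3α untreated cells (SD, n = 2 each). Those of Tbx3 were 212 ± 1.17 in GSK3β 3MB-PP1 cells, 172 ± 11.7 in GSK3β untreated cells, 201 ± 5.00 in GSK3α 3MB-PP1 cells and 211 ± 0.742 in GSK3α untreated cells. For Nr5a2, Tbx3 and Klf5, untreated GSK3β cells stood below the other 3 groups, and the level with 3MB-PP1 was within or near the range of the GSK3α line. For Tfcp2l1, Klf2, Klf4, Esrrb and Nanog, and narrowly for Tbx3, both GSK3β 3MB-PP1 libraries exceeded every library of the GSK3α line.

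Levels were set against each other per kilobase of exon (union of annotated exons, GENCODE vM21 on GRCm38, since the authors' annotation is not given in the sources used here). In GSK3β 3MB-PP1 cells the order of the values per kilobase was Nanog 433, Zfp42 319, Nr0b1 133, Esrrb 107, Klf2 101, Klf4 63.2, Tfcp2l1 37.1, Tbx3 32.1, Klf5 15.9 and Nr5a2 11.5. In GSK3β untreated cells Tfcp2l1 at 22.5 stood below Tbx3 at 26.0, as it did in both GSK3α groups (25.8 against 30.4 with 3MB-PP1, and 25.6 against 31.8 untreated). Nanog stood above Zfp42 in both GSK3β groups and below it in both GSK3α groups, at 378 against 409 with 3MB-PP1 and 369 against 404 untreated. The other 6 kept their places in all 4 groups, and the libraries of neighbours in the order did not overlap in any group.

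The genes with the most similar pattern over the 8 libraries were found by the root mean square distance between log2 values, each taken from its own mean, among 10793 tested genes with a mean of at least 5. Tdrp was the nearest to both Tfcp2l1 (distance 0.0473, against the deviation of 0.272 of Tfcp2l1 itself) and Klf4 (0.0446, own deviation 0.22), followed by Yes1 for Tfcp2l1 (0.0654) and Tmem181a for Klf4 (0.0453). Tdrp averaged 48.5 in GSK3β 3MB-PP1 cells, 31.0 in GSK3β untreated cells, 35.3 in GSK3α 3MB-PP1 cells and 36.0 in GSK3α untreated cells. Nearest to Klf2 were Nes (0.0441), which encodes the neural intermediate filament nestin and is one of the neural markers above, and Gprc5b (0.0504), to Klf5 Igfbp4 (0.0472) and Dcaf12l1 (0.0549), and to Nr5a2 Slc5a6 (0.0507) and Mllt6 (0.0515). Esrrb was nearest to Etv5 (0.024), an ETS factor, and Sh3bp1 (0.0246), and Nanog to Mtmr12 (0.0162) and Prrc2b (0.0177). Nr0b1 was nearest to Plk1 (0.0225) and Plpp1 (0.0287), Tbx3 to AW549877 (0.0276) and Brpf3 (0.0293), and Zfp42 to Hdac6 (0.0209) and Tpp1 (0.0263). Among the factors themselves the closest pairs were Esrrb with Nanog (0.0662, own deviations 0.0848 and 0.0896), Nr5a2 with Tbx3 (0.0686, own deviations 0.162 and 0.126) and Tfcp2l1 with Klf4 (0.069, own deviations 0.272 and 0.22). The distance is small wherever both genes vary little, and that of Esrrb and Nanog was nearly as large as the variation of either gene. Zfp42 was farthest from its nearest neighbour, Tbx3 (0.168, own deviation of Zfp42 0.188).

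The KLF family shows how the 3 naive KLF genes compare with their relatives. Of 14 tested KLF genes (17 had values), 4 rose and 2 fell in the GSK3β line (7.49% and 7.44% of all tested genes), and the median log2 change was 0.07, or -0.01 without Klf2, Klf4 and Klf5. The fourth that rose was Klf10 (98.4 ± 3.53 with 3MB-PP1 against 77.2 ± 2.57 untreated, SD, n = 2 each, log2 0.35, adjusted p = 6.76e-06), a TGF-β-induced member, which with Klf6 is named after its values were seen. Klf7 (log2 -0.36, adjusted p = 0.0145) and Klf6 (log2 -0.33, adjusted p = 0.000204) fell, and the call of Klf7 was lost without any 1 of the 4 GSK3β libraries (adjusted p 0.0519 to 0.0939). In the GSK3α line 0 of 14 passed with limma-trend or limma-voom, and at an unadjusted p under 0.05, 1 was higher and 1 lower. Since 0.881% of all tested genes passed with limma-trend in that line, 0 of 14 is near that share.

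**Figure D4:**
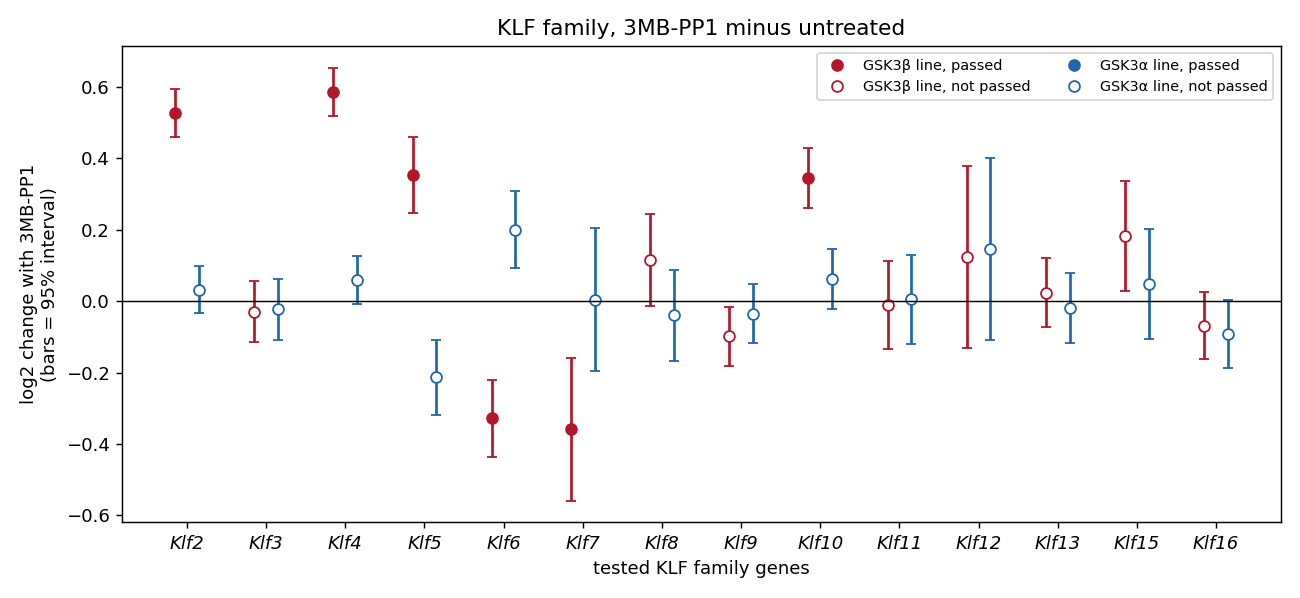
Log2 change with 3MB-PP1 of the 14 tested KLF genes in the GSK3β line (red) and the GSK3α line (blue), with 95% intervals and filled points for adjusted p under 0.05. In the GSK3β line Klf2, Klf4, Klf5 and Klf10 lie above 0 and Klf6 and Klf7 below, all filled, and no GSK3α point is filled.

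Relatives of the other factors moved in both directions, as did all tested genes (7.49% higher and 7.44% lower in the GSK3β line). Of 6 tested nuclear receptors, 3 rose and 2 fell in the GSK3β line: besides the naive factors, Nr6a1 (log2 0.15, adjusted p = 0.0385), a germ cell nuclear factor that represses Pou5f1 on differentiation, was higher, and Rarg, a retinoic acid receptor, fell to 163 ± 2.15 against 226 ± 0.102 untreated (log2 -0.47, adjusted p = 2.67e-09). Of 6 grainyhead-like and TFCP2 genes, 2 rose and 1 fell there, namely Tfcp2 (log2 0.20, adjusted p = 0.0443) beside Tfcp2l1, and Grhl2 (log2 -0.73, adjusted p = 1.36e-07), an epithelial regulator. The calls of Nr6a1 and Tfcp2 were lost without either GSK3β 3MB-PP1 library, GSK3β untreated replicate 1 or either GSK3α 3MB-PP1 library, and that of Tfcp2 also without GSK3β untreated replicate 2 (adjusted p up to 0.292 and 0.229). With all libraries kept, that of Nr6a1 was lost with equal totals and limma-voom, and that of Tfcp2 with a pseudocount of 4, no filter, equal totals, limma-voom, the replicate block and a fit on the 2 groups alone (6 of 18 alternatives passed). With limma-voom 2 nuclear receptors and 1 of the grainyhead-like and TFCP2 genes rose. Of 4 tested T-box genes Tbx3 alone passed, and of the 3 YY1 relatives Yy1 fell (log2 -0.19, adjusted p = 0.00125). In the GSK3α line, where 0.881% of all tested genes passed, these 4 lists held 1 call, the Nr5a2 result above.

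Of 7 TCF and β-catenin genes, which carry the signal that GSK3 restrains, 2 rose and 1 fell in the GSK3β line (7.49% and 7.44% of all tested genes), with a median log2 change of -0.05. Axin2, a direct β-catenin target that feeds back on the pathway, rose to 39.8 ± 2.03 with 3MB-PP1 against 14.6 ± 0.779 untreated (log2 1.39, adjusted p = 5.66e-11), Sp5, another direct target, rose to 2.25 ± 0.221 against 0.206 ± 0.0708 (log2 1.43, adjusted p = 4.03e-06), and Lef1 fell (-0.63, adjusted p = 1.93e-05). At so low a level the log2 change of Sp5 is set largely by the pseudocount: it was 2.46 with a pseudocount of 0.25 and 0.57 with 4, and it passed with both. The filter asked for a mean of at least 1 over the libraries, so Sp5 was tested with the help of the group in which it rose. It could be fitted in 15 of the 18 alternatives, and in 6 of the 8 without a single library, and passed in each of these. Tcf7l1 itself did not pass (-0.05, adjusted p = 0.493). Of 8 LIF and STAT3 genes, 2 rose and 2 fell: Il6st, the shared receptor subunit gp130, rose (log2 0.61, adjusted p = 7.09e-09), as did Stat3 (0.19, adjusted p = 0.0410), while Junb (-0.52, adjusted p = 0.000218) and the kinase gene Pim3 (-0.40, adjusted p = 4.05e-07) fell. The call of Stat3 was lost without GSK3β 3MB-PP1 replicate 1 or either GSK3β untreated library (adjusted p up to 0.504) and with the replicate block (0.0516), and Socs3, a STAT3 feedback gene, had a log2 change of -0.004 (adjusted p = 0.982). In the GSK3α line 0 TCF and β-catenin genes passed with limma-trend or limma-voom (1 lower at an unadjusted p under 0.05). Over all tested genes 0.881% passed with limma-trend in that line, so 0 of 7 is near that share. Of the LIF and STAT3 genes Pim1 fell there (-0.21, adjusted p = 0.00563), a call lost without either GSK3α 3MB-PP1 library (log2 -0.20 and -0.22).

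Other pluripotency genes were counted in the same way. Of 11 core pluripotency factors, 3 rose and 1 fell in the GSK3β line (7.49% and 7.44% of all tested genes), with a median log2 change of -0.01. Tfap2c, which acts at naive enhancers, rose to 46.6 ± 4.76 with 3MB-PP1 against 25.5 ± 3.96 untreated (log2 0.85, adjusted p = 2.21e-07), Prdm14, a repressor of de novo methylation genes, rose (0.52, adjusted p = 8.77e-07), and Tfe3 rose (0.18, adjusted p = 0.00111). Pou5f1 (-0.06, adjusted p = 0.220) and Sox2 (-0.06, adjusted p = 0.203), the central pair of the network, did not pass. Of 20 other genes listed with the naive state, 5 rose and 8 fell (median log2 change -0.06). Tdh, threonine dehydrogenase, was up (0.38, adjusted p = 1.06e-07). Fgf4, the growth factor that drives exit from the naive state (-0.52, adjusted p = 1.78e-09), and Dnmt3l, a cofactor of de novo DNA methylation (-0.41, adjusted p = 3.03e-08), were down. The list is thus not limited to genes that maintain the naive state.

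Genes of the formative state, which follows the naive state, mostly fell in the GSK3β line: of 11, 9 fell and 1 rose (7.44% and 7.49% of all tested genes), with a median log2 change of -0.42. Pou3f1 fell to 5.81 ± 0.483 with 3MB-PP1 against 15.4 ± 2.03 untreated (log2 -1.26, adjusted p = 6.04e-08), and Fgf15 (-1.18, adjusted p = 1.97e-07), Fgf5 (-0.98, adjusted p = 1.36e-05) and Otx2 (-0.54, adjusted p = 4.15e-08) fell with it (the log2 change of Fgf5 was -0.54 with a pseudocount of 4), while Etv5 rose (0.21, adjusted p = 7.42e-05). In the GSK3α line 3 of the 11 fell (0.616% of all tested genes), Fgf15 (-0.53, adjusted p = 0.0167), Foxd3 (-0.30, adjusted p = 0.00590) and Otx2 (-0.29, adjusted p = 0.00172), the last of which is named after its values were seen. These 3 calls were lost without GSK3α 3MB-PP1 replicate 1, GSK3α 3MB-PP1 replicate 2 or GSK3α untreated replicate 2 for Fgf15 (adjusted p up to 0.287), without the last 2 of these for Foxd3 (up to 0.136) and without GSK3α 3MB-PP1 replicate 1 for Otx2 (0.0601).

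Of the core list 2 of 11 genes fell in the GSK3α line, and of the other naive list 1 of 20 rose and 1 fell (0.265% of all tested genes rose and 0.616% fell). Zfp281 (log2 -0.15, adjusted p = 0.0308) and Dppa2 (-0.13, adjusted p = 0.0428) fell and Fgf4 rose (0.14, adjusted p = 0.0497), and each of these 3 named calls was lost when any 1 of the GSK3α libraries or either GSK3β 3MB-PP1 library was left out (adjusted p up to 0.244, 0.428 and 0.324). With all libraries kept, those of Dppa2 and Fgf4 were each also lost under 4 other alternatives, no filter and the replicate block among them.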

How the data were processed

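RNA was measured by Illumina sequencing in 8 libraries, 2 per group. Reads were processed with TopHat2 and Partek on mm10, per the submitters' processing notes, and versions, annotation, strand setting and filters are not given in the sources used here. The deposited table holds signal values, which the authors made from estimated gene counts scaled so that the third quartile was equal (within 0.0548% over the libraries). It is not raw counts: with the smallest value of a library taken as 1 read, 63.5 to 67.6% of values up to 20 reads were whole within 0.1. Depth was estimated in the same way, so no counting intervals are given. Of 48321 listed genes 17488 had values, and 13959 with a mean of at least 1 were tested.

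Values were tested as log2(value + 1), which understates fold changes of low genes, with limma-trend (limma 3.58.1, R 4.3.3, data.table version 1.17.8), 1 mean per group over all 8 libraries, which leaves 4 residual degrees of freedom. Empirical Bayes added 14.4 prior degrees of freedom, so the SE of a gene rests more on the trend over all tested genes than on its own spread. The p-values were adjusted by Benjamini-Hochberg over all tested genes of a comparison, two-sided, threshold 0.05. The 4 comparisons were 3MB-PP1 against untreated cells of the GSK3β line and of the GSK3α line, the interaction of line and inhibitor, and untreated GSK3β against untreated GSK3α cells. The fit was also run on simulated libraries. There all genes had the same spread beyond counting, so how it handles genes of unequal spread was not tested. Alternatives were 2 other pseudocounts, 2 filters, 2 scalings, limma-voom, robust empirical Bayes, a replicate block, a fit on the compared groups alone, and leaving out each library. Figures and tables used python 3.11.15 with pandas 2.3.3, numpy 2.4.6 and matplotlib 3.10.9.

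The members and gene lists were chosen with earlier results of these data known. All 10 members are named. Of each other list the text names up to 4 genes with the largest change past the threshold in the GSK3β line and up to 2 in the GSK3α and untreated comparisons, of cell type lists those past the threshold in the inhibitor comparisons, and for each member the 2 genes of most similar pattern. A few genes that this rule names are not reported here. Gene positions are from GENCODE vM21 (GRCm38) and promoters from RefSeq (GRCm38.p6).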

Additional observations from a re-analysis of the deposited data

Results flagged for a closer look

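The response to 3MB-PP1 differed between the lines for 7 of the 10 naive factors, tested as the interaction of line and inhibitor with limma-trend. Over all tested genes 6.53% passed, 3.62% with the higher change in the GSK3β line. The change in the GSK3β line minus that in the GSK3α line was log2 0.71 for Tfcp2l1, 0.567 for Klf5, 0.558 for Nr5a2, 0.527 for Klf4, 0.495 for Klf2, 0.368 for Tbx3 and 0.247 for Esrrb. For each of these 7 factors both libraries with 3MB-PP1 lay above both untreated libraries in the GSK3β line, as for 27.3% of all tested genes. In the GSK3α line both lay above for Klf4 and Klf2, both below for Klf5, Nr5a2 and Tbx3, and the libraries overlapped for Tfcp2l1 and Esrrb. Over all tested genes 23.0% lay wholly above and 19.0% wholly below in that line. These 7 differences passed under each of the 17 alternatives that could be fitted.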

How the results depend on the processing

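In the GSK3β line 8 factors rose under every alternative that keeps all libraries, and 7 to 8 without single libraries, with 0 to 1 falling. The number of factors that fell in the GSK3α line was 2 with a pseudocount of 4, a mean of at least 5, libraries rescaled to equal median log2 value, robust empirical Bayes or a fit on the 2 groups compared, since Klf5 then passed, and 0 with limma-voom, and it ranged from 0 to 2 without single libraries. Between the untreated lines 1 to 2 factors were higher and 6 to 7 lower without single libraries, and the difference between the lines passed for 7 factors without any of them, with 0 in the other direction. Over all tested genes, calls in the GSK3β line numbered 2084 with all libraries and 855 to 2272 without single ones (855 without GSK3β 3MB-PP1 replicate 1, 1183 without GSK3β untreated replicate 1). Those in the GSK3α line numbered 123 and 17 to 191 (17 and 25 without GSK3α 3MB-PP1 replicates 1 and 2, 57 and 58 without GSK3α untreated replicates 1 and 2, 191 and 185 without GSK3β untreated replicates 1 and 2). For the difference they numbered 911 and 351 to 1339 (351 without GSK3β 3MB-PP1 replicate 1, 573 without GSK3β untreated replicate 1, 465 and 473 without GSK3α 3MB-PP1 replicates 1 and 2), and between the untreated lines 6723 and 5666 to 6560. A direction turned for values that passed no test (ranges without single libraries in brackets): Zfp42 in the GSK3β line without GSK3β 3MB-PP1 replicate 1 (log2 -2.7e-05, range to 0.079), Tfcp2l1 in the GSK3α line with equal medians (-0.0054) and without GSK3α 3MB-PP1 replicate 2 (-0.023) or untreated replicate 2 (-0.017, range -0.023 to 0.037), Esrrb in the GSK3α line without GSK3α 3MB-PP1 replicate 1 (0.0022, range from -0.058), Zfp42 in the GSK3α line without untreated replicate 1 (-0.021, range to 0.056), and the difference of Zfp42 without GSK3β 3MB-PP1 replicate 1 (-0.017) or GSK3α untreated replicate 2 (-0.017, range to 0.061). The cause was not tested. Over all alternatives, values of factors that passed kept their call 450 times and lost it 29 times, and 0 of them turned direction. Replicate numbers did not pair the libraries (correlation of deviations -0.0447 in the GSK3β line and -0.0443 in the GSK3α line), and with the replicate block the factors' calls were the same except Klf2 between the untreated lines (log2 0.08, adjusted p = 0.0542). Between the untreated lines the call of Esrrb was also lost with equal totals (log2 -0.04, adjusted p = 0.352), the highest of its 18 alternatives. The share of higher calls between the untreated lines was 46.3% as deposited, 58.9% with equal totals and 59.4% with limma-voom. The difference between the lines could not be fitted on 2 groups alone. With 2 libraries per group, small changes such as those of Nanog, Nr0b1 and the GSK3α line depend on single libraries.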

Other observations

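Genes related to the naive factors were also counted between the untreated lines, where 48.2% of all tested genes passed, 22.3% higher and 25.9% lower. Counts near these shares are no result about a list. Among the core pluripotency factors 0 of 11 were higher and 7 lower in untreated GSK3β cells than in untreated GSK3α cells with limma-trend (2 higher and 8 lower at an unadjusted p under 0.05, and 2 higher and 5 lower with limma-voom), led by Tfap2c (25.5 ± 3.96 against 44.5 ± 0.650, SD, n = 2 each, log2 -0.79, adjusted p = 8.17e-08) and Prdm14 (log2 -0.41, adjusted p = 2.32e-06). Of the 20 other genes listed with the naive state 7 were higher and 6 lower, with the largest differences in Dppa3 (2.75 ± 0.0360 against 7.44 ± 0.673, log2 -1.17, or -0.76 with a pseudocount of 4, adjusted p = 5.96e-08), a maternal factor that protects methylation in the early embryo, and Sox15 (log2 -0.85, adjusted p = 7.68e-08). Of the 11 formative genes 6 were higher and 1 lower, led by Pou3f1 (15.4 ± 2.03 against 7.99 ± 0.530, log2 0.86, adjusted p = 1.27e-06) and Fgf15 (log2 0.61, adjusted p = 8.58e-05).

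Of 14 KLF genes 6 were higher and 5 lower in the untreated GSK3β line, against 22.3% and 25.9% of all tested genes, with Klf6 (log2 0.49, adjusted p = 3.23e-07) beside Klf5 the largest. The T-box gene T, a mesoderm marker, was lower (0.758 ± 0.243 against 3.51 ± 0.388, log2 -1.36, adjusted p = 2.14e-07) and Tbx4 higher (log2 0.53, adjusted p = 0.000757), differences of -0.66 and 0.31 with a pseudocount of 4, and of the grainyhead-like genes Grhl3 (log2 -0.63, adjusted p = 1.87e-08) and Tfcp2 (log2 -0.46, adjusted p = 1.51e-05) were lower. Yy2 was lower (log2 -0.29, adjusted p = 0.00277). Of the TCF and β-catenin genes Sp5 (log2 -0.49, adjusted p = 0.0163) and Tcf7l2 (log2 -0.32, adjusted p = 0.00444) were lower, calls lost without GSK3β untreated replicate 1 or GSK3α untreated replicate 1 or with a pseudocount of 4 (log2 -0.16, adjusted p = 0.0588) for Sp5 (up to 0.103) and without GSK3β untreated replicate 2 for Tcf7l2 (0.0524). Between the untreated lines Sp5 could be fitted in 14 of the 18 alternatives, of which 11 passed. Socs3 was lower (log2 -0.59, adjusted p = 3.79e-05) and Pim1 higher (log2 0.33, adjusted p = 2.87e-07) among the LIF and STAT3 genes. These differences compare 1 line with 1 other line, so the paralog, the transgene and the line cannot be told apart.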
